A study of Mus musculus with 59 samples.

Results

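Expression of 9 mouse genes whose human counterparts carry mutations in inherited amyotrophic lateral sclerosis (ALS), and which are not RNA-binding proteins, was examined in cultured motor neuron tissue exposed to mouse serum. The genes were Sod1, Vcp, Optn, Tbk1, Sqstm1, Ubqln2, Pfn1, Kif5a and Vapb. They were found by symbol in the deposited table, and all 9 were present among its 19613 genes. The cells were embryoid bodies (EBs), aggregates containing spinal motor neurons, differentiated from the mouse embryonic stem cell line HBG3, in which the HB9 promoter drives eGFP to mark motor neurons. EBs were exposed for 24 h to 5% serum from pre-symptomatic male mice hemizygous for the mutant human transgene of B6SJL-Tg(SOD1*G93A)1Gur/J (carrier serum, 29 arrays) or from their non-carrier littermates (30 arrays). The donors were F1 progeny of C57BL/6 and SJL mice, with a labelled age of 9 weeks for 53 arrays and 10 weeks for 6. The cultures of both groups were the same line and carried no SOD1 transgene. The Sod1 value is therefore that of the mouse gene of the culture, and it cannot check which serum an array received. EBs hold motor neurons beside progenitors and other cells, so in all of these values fewer cells of a type and less RNA per cell cannot be told apart.

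In these inherited forms of ALS the affected proteins fall into a few cellular systems. Sod1 converts superoxide to hydrogen peroxide in the cytosol. Vcp is an ATPase that pulls ubiquitin-tagged proteins out of membranes and complexes, and Ubqln2 carries such proteins to the proteasome. Sqstm1 (p62) and Optn are receptors that tether ubiquitin-tagged cargo to the autophagy membrane, and Tbk1 is the kinase that phosphorylates both. Pfn1 supplies actin monomers for filament growth, Kif5a is the neuronal kinesin-1 motor of axonal transport, and Vapb anchors the endoplasmic reticulum to other organelles. Motor neurons, with their long axons, are the cells lost in the disease.

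Values were Affymetrix exon array intensities, taken to log2, and genes were not compared in level with one another, apart from the check of markers. The labels name no batch, so 9 runs of 4 to 11 arrays were inferred from the titles. The runs are called motorneuron and HB9MNs after their titles, A to F for the numbered arrays in the order of their numbers, and 10-week for the arrays with serum of that age. Titles of the numbered arrays carry no mark of a run. Each of A to F is a stretch of non-carrier numbers followed by carrier numbers, and its bounds are inferred. Each run held both sera. Median intensities of single arrays ran from 151 to 183 for carrier serum and from 153 to 177 for the controls. The motor neuron markers Isl1, Mnx1 and Chat lay at percentile 77.5 of all genes or higher, and the pluripotency gene Pou5f1 at percentile 17.1. These genes were picked from longer lists after their values were seen. Over the whole lists, mean log2 intensities by run were 9.02 to 9.37 for 6 motor neuron markers and 5.83 to 6.44 for 4 pluripotency markers. Two-sided Grubbs' tests at 0.05 within runs called 1 carrier array of run E and 1 control array of run C, with average correlations of 0.979 and 0.990 with the rest of their runs. The carrier array, called the low array of run E here, held the lowest value of all 59 arrays for Sod1, Ubqln2 and Vapb and the highest for Tbk1, so their changes without it are given beside the results.

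With carrier serum Sqstm1 fell by 0.074 on the log2 scale (SE 0.017), or -5.01% of its intensity, and it was the 1 gene of the 9 to pass an adjusted p of 0.05 (limma, adjusted p = 0.0131). Ubqln2 (log2 change -0.063) and Vapb (-0.056) had unadjusted p of 0.00615 and 0.0274 but did not pass after adjustment over all genes. The other 6 lay between -0.028 for Optn and 0.023 for Tbk1, and each of their 95% intervals spanned 0. Of all 19613 genes tested, 2.33% passed the same threshold and 1.65% passed it with a lower value, against 1 of these 9. With quantile normalization of the arrays the 323 lower calls among 457 became 264 among 444. At an unadjusted p under 0.05, 3 of the 9 genes were called against 20.7% of all genes. The change was below 0 for 8 of the 9 genes, where 38.9% of all genes were below 0, and the median change was -0.022 for the 9 genes and 0.016 for all genes. Over the 9807 brighter genes, which include all 9, the median was -0.0096, and with quantile normalization it was 0.0015 for all genes. The 38.9% is thus not a background matched in intensity. The median size of the change was 0.023 for the 9 genes and 0.039 for all genes. Sqstm1, Ubqln2 and Vapb lay above the latter in size and the other 6 below it. Among all called genes the median size was 0.11, but those were selected by passing the test.

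**Figure D1:**
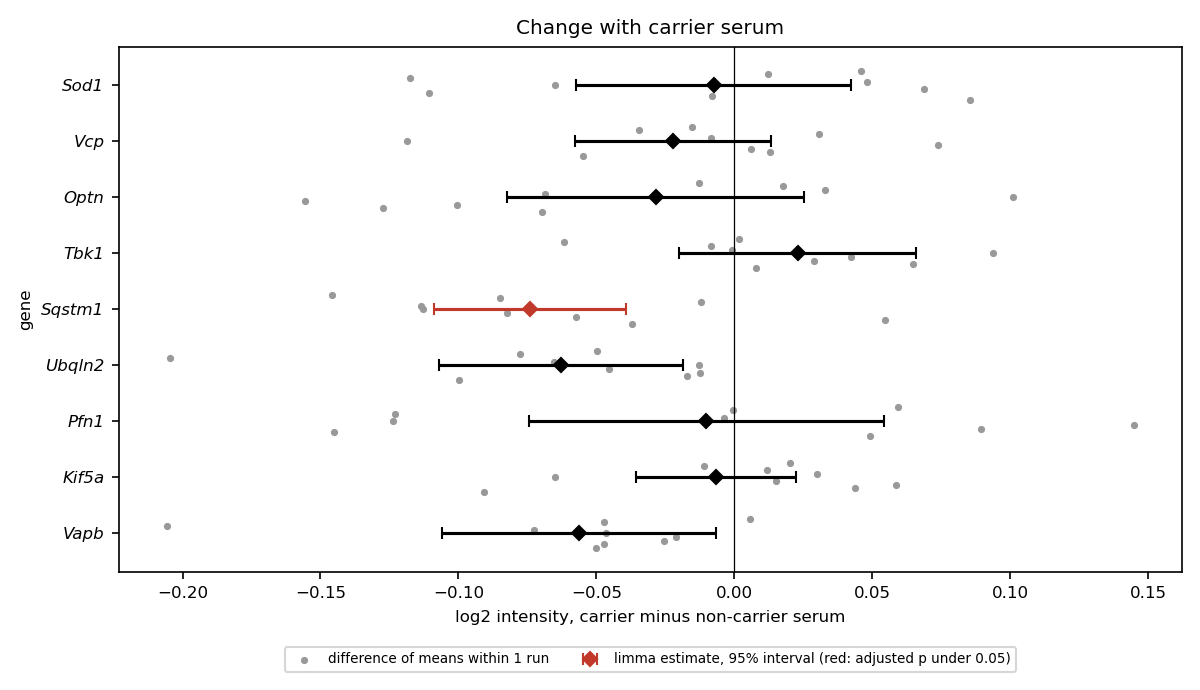
Carrier minus non-carrier difference in log2 intensity (horizontal axis) for each of the 9 genes (vertical axis). Diamonds are limma estimates with the run as a block and 95% intervals, red where the adjusted p was under 0.05, and grey points are the differences of means within each of the 9 runs. The Sqstm1 estimate lies at -0.074 with 8 of 9 runs below 0, and all 9 runs of Ubqln2 lie below 0.

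Sqstm1, the p62 receptor, had log2 intensities from 10.50 to 10.95 with a median of 10.75 on the 29 carrier arrays, and from 10.45 to 10.97 with a median of 10.88 on the 30 non-carrier arrays. The groups overlapped when all runs were pooled. Within single runs they stood further apart. In the 10-week run the carrier arrays had 10.58, 10.60 and 10.65 and the non-carrier arrays 10.73, 10.73 and 10.80. In run F the values were 10.59, 10.60 and 10.64 against 10.66, 10.68 and 10.73. In run D they were 10.70, 10.75 and 10.85 against 10.86, 10.87, 10.89 and 10.90. Every carrier array thus lay below every non-carrier array in these 3 runs, and the same held in run B, where the nearest arrays were 10.88 and 10.89. Such separation downwards in at least 4 runs was seen in 2.3% of all genes. In run C the mean difference was -0.11 with overlap, and HB9MNs, with 2 arrays a group, was the 1 run with a higher mean under carrier serum (difference 0.055). The 95% interval of the change over all runs was -0.11 to -0.039, or -7.26% to -2.70% of the intensity (limma, n = 29 and 30). The call was lost without run D (adjusted p = 0.0826), without the 10-week run (0.0810), without runs E and F (0.0648) and with no block for the run (0.995). The change remained below 0 in all 25 alternatives tried, between -0.084 and -0.048, and passed the threshold in 18 of them, also without the low array of run E (-0.078, adjusted p = 0.00778).

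**Figure D2:**
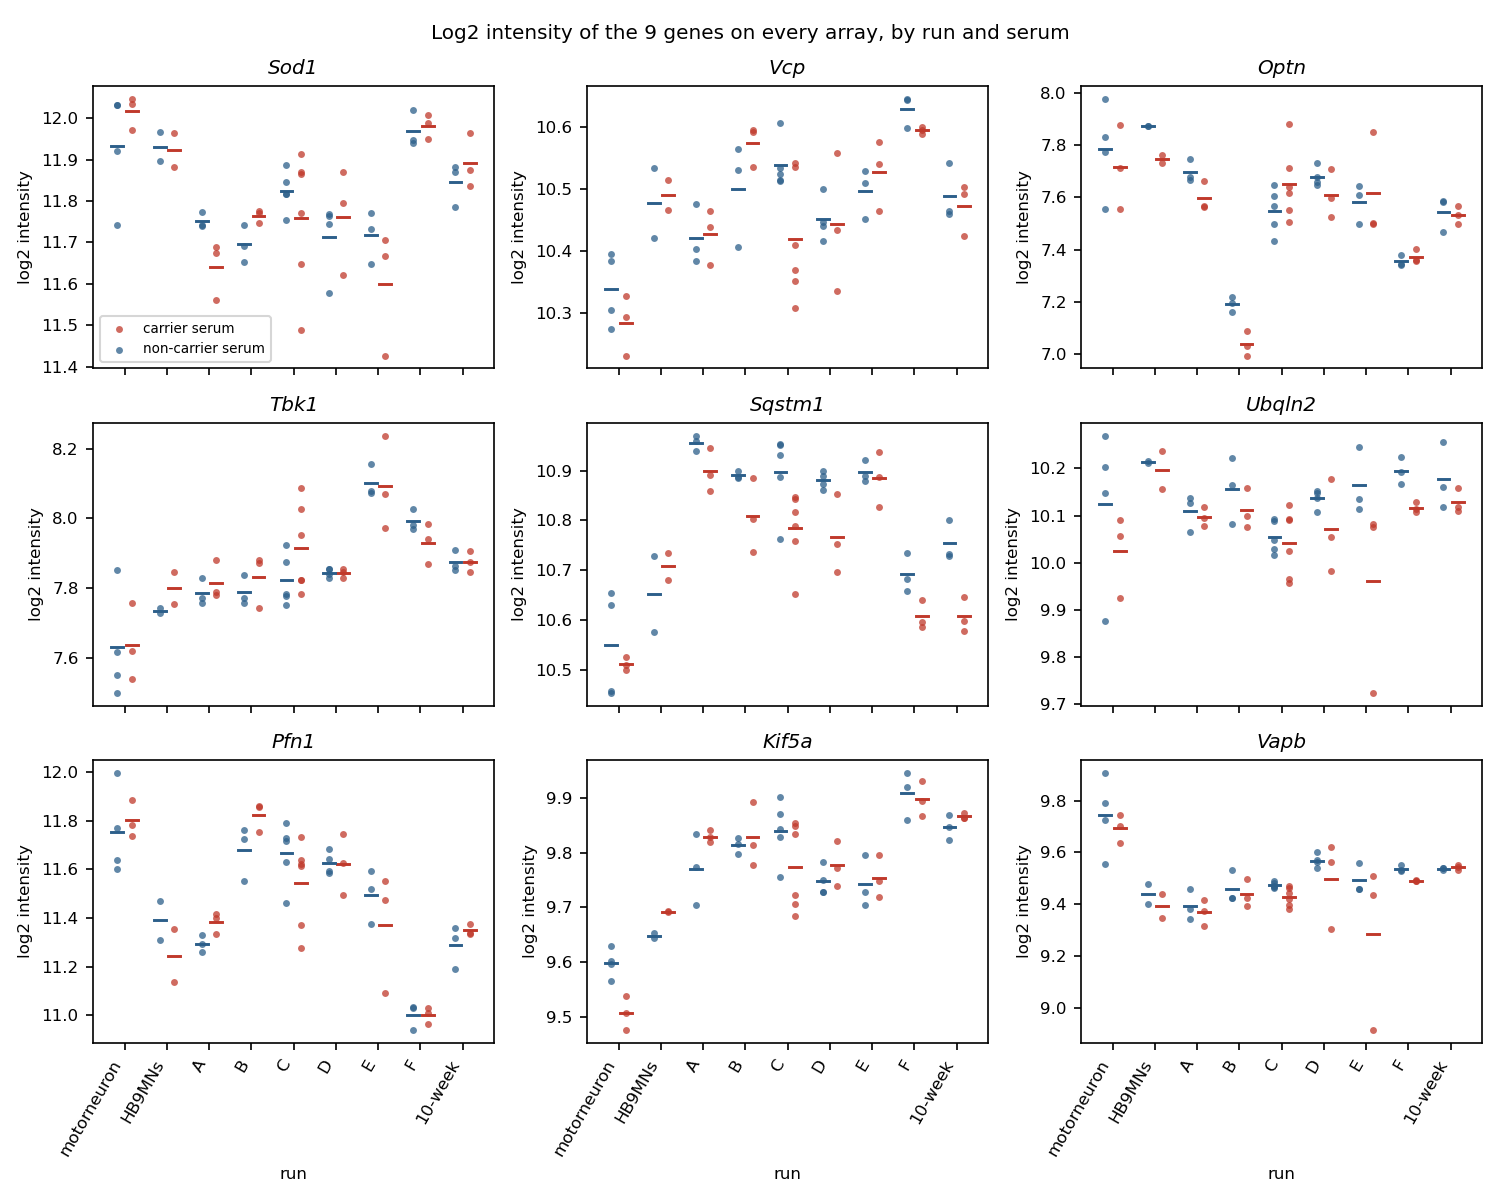
Log2 intensity (vertical axes) of each of the 9 genes on each of the 59 arrays, by run (horizontal axes), with carrier serum in red and non-carrier serum in blue. Each point is 1 array and each bar the mean of a group within the run. Sqstm1 carrier arrays lie below all non-carrier arrays in runs B, D, F and 10-week, and the low carrier point of run E in the Sod1, Ubqln2 and Vapb panels is the low array.

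The promoter of Sqstm1 is shown because it was the gene that passed. RefSeq windows from 250 bases before to 50 bases after the gene start were at hand for 7 of the 9 genes (GRCm38.p6). The Sqstm1 window lies on the minus strand at chr11:50210771-50211070 and reads, with GC boxes (GGGCGG on either strand) and a TATA box (TATAAA) in capitals:
Sqstm1: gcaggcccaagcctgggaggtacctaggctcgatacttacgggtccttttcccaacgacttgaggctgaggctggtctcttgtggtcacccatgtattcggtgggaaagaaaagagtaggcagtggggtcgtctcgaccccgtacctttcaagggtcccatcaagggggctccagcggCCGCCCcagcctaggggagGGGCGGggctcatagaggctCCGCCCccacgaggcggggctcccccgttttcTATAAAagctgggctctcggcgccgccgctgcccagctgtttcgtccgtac
The 3 GC boxes begin at positions -72, -53 and -33 from the annotated gene start, and the TATA box at position -1. A GC box was found in 35.7% and TATAAA in 13.6% of all 32851 windows, on either strand. These 2 motifs were added after the sequences had been seen. The ATF4-CEBP element TGATGNAA (3.97% of all windows) and the CLEAR core TCACGTGA (0.974%), the motifs of the amino acid stress factor ATF4 and of the lysosome regulator TFEB, had no match in any of the 7 windows. The antioxidant response element core TGACNNNGC, to which NRF2 binds and which 12.4% of all windows hold, had no match in the Sqstm1 window and 1 match each in the windows of Sod1 and Vcp. Those stretches are shown with the match in capitals, at chr16:90220686-90220734 on the plus strand for Sod1, where it reads on the opposite strand, and at chr4:43000593-43000641 on the minus strand for Vcp:
Sod1: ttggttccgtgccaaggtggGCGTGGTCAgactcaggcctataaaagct
Vcp: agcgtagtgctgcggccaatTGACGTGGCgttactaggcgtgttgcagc
The matches begin at positions -56 and -114 from the gene start. They describe the letters of these windows and show no binding.

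Optn and Tbk1, the partner receptor and the kinase of Sqstm1 in autophagy, did not pass the test. Optn had log2 intensities from 6.99 to 7.88 (median 7.56) with carrier serum and from 7.16 to 7.98 (median 7.61) with non-carrier serum, a change of -0.028 (SE 0.027, limma adjusted p = 0.537). Carrier arrays lay below all non-carrier arrays in runs HB9MNs, A and B, with differences of -0.13, -0.10 and -0.16, a pattern in at least 3 runs that 5.69% of all genes showed. In run C the Optn difference was 0.10 in the other direction, with overlapping arrays. Tbk1 ranged from 7.54 to 8.24 (median 7.85) with carrier serum and from 7.50 to 8.16 (median 7.84) with non-carrier serum, a change of 0.023 (SE 0.021, limma adjusted p = 0.533), or 0.018 without the low array of run E. With the 4 motor neuron genes Olig2, Mnx1, Isl1 and Lhx3 added as covariates Optn passed (-0.081, adjusted p = 0.0230) and the sign of Tbk1 turned (-0.046).

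Among 13 autophagy receptors and TBK1 partners, all measured, Sqstm1 fell and Calcoco1 rose. Calcoco1, a receptor for autophagy of the endoplasmic reticulum and Golgi, changed by 0.073 (SE 0.018, limma adjusted p = 0.0169) and was higher with carrier serum in 8 of 9 runs. It passed in 17 of 25 alternatives. The remaining 11 did not pass, including Nbr1 (-0.012), which resembles Sqstm1 in structure, and Tax1bp1 (0.037). Of 25 measured genes of the autophagy core, 2 fell and none rose. These were Atg14, a subunit of the lipid kinase complex that starts the membrane (-0.079, adjusted p = 0.0493), and Wipi2, which binds its product (-0.077, adjusted p = 0.0402). Atg14 passed in 8 of the 24 alternatives that measured it and Wipi2 in 10 of 25, both below 0 in all of them. The median change of the core list was -0.011 against 0.016 for all genes and -0.0096 for all genes with the dim ones left out. Of all genes 2.33% passed.

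Ubqln2, the ubiquilin shuttle, was the 1 gene of the 9 with a lower mean under carrier serum in every run, which 1.11% of all genes showed. Its log2 intensity ran from 9.72 to 10.24 (median 10.09) on carrier arrays and from 9.88 to 10.27 (median 10.14) on non-carrier arrays, and the groups overlapped. The difference was widest in run E, at -0.20, where the low array had 9.72 and the other carrier arrays 10.08 each. The fitted change was -0.063 (SE 0.022, 95% interval -0.11 to -0.019, limma adjusted p = 0.103). It was -0.050 without the low array of run E (adjusted p = 0.144) and -0.017 with the 4 motor neuron genes as covariates (adjusted p = 0.582), whereas with weights for array quality it was -0.048 and passed (adjusted p = 0.0251).

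Of the ubiquilin relatives, Ubqln1 and Ubqln4 had values on the same side without passing. Ubqln1, the widely expressed paralog, changed by -0.043 (SE 0.017, unadjusted p = 0.0123, limma adjusted p = 0.139) and was lower in 8 of 9 runs. Ubqln4 changed by -0.044 (SE 0.021, unadjusted p = 0.0433, adjusted p = 0.228) and was lower in 7 of 9. Of the 5 ubiquilin genes 4 were below 0, with a median of -0.043 and 0 calls, 3 having an unadjusted p under 0.05. The highest change in the list was 0.095, larger in size than that of Ubqln2. Of 29 measured proteasome subunits, the destination of ubiquilin cargo, 20 were below 0 with a median of -0.030, and 1 passed. This was Psmd4, a ubiquitin receptor of the proteasome, which fell by 0.11 (SE 0.025, limma adjusted p = 0.0137) and was lower in 9 of 9 runs, passing in 18 of 25 alternatives. Psmd4 is in a gene list that the study selected on these arrays, so its direction is not independent evidence. At an unadjusted p under 0.05, 7 subunits were lower and 2 higher. Over all genes 38.9% were below 0, 2.33% passed and 20.7% had an unadjusted p under 0.05 in either direction.

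Vcp, the segregase ATPase, varied little between arrays, with an SD within run and serum of 0.060 that only 3.77% of genes undercut. It had log2 intensities from 10.23 to 10.60 (median 10.47) with carrier serum and from 10.28 to 10.65 (median 10.49) with non-carrier serum. The change was -0.022 (SE 0.018, 95% interval -0.058 to 0.013, limma adjusted p = 0.460), with 5 runs lower and 4 higher. None of the 27 measured Vcp cofactors, the adaptors and enzymes that direct Vcp to its substrates, passed, with 2 higher and 3 lower at an unadjusted p under 0.05. That unadjusted threshold was met by 20.7% of all genes in either direction. The median change of the cofactors was 0.0076.

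Sod1 ranged from 11.43 to 12.05 (median 11.84) with carrier serum and from 11.58 to 12.03 (median 11.78) with non-carrier serum, so the medians and the means (11.81 and 11.82) ordered the groups differently. The change was -0.0074 (SE 0.025, limma adjusted p = 0.881), and its 95% interval of -3.89% to 2.99% of the intensity bounds the size of any change seen here. In run A all carrier arrays lay below the non-carrier arrays (difference -0.11), and in run B all lay above (0.069). The sign turned without the low array of run E (0.0021). Sod2, the mitochondrial enzyme (-0.010, adjusted p = 0.865), Sod3, the secreted enzyme (0.17, SE 0.060, adjusted p = 0.0964), and Ccs, which delivers copper to Sod1 (0.066, adjusted p = 0.257), did not pass either. Among 13 superoxide and peroxide enzymes Cat, the catalase that breaks down hydrogen peroxide, rose by 0.088 (SE 0.021, limma adjusted p = 0.0149), and it was higher with carrier serum in 9 of 9 runs. The share of all genes higher in every run was not counted. Cat passed in 17 of 25 alternatives. No other enzyme of the list passed, where 2.33% of all genes did. At an unadjusted p under 0.05, 2 of the 13 were higher and 3 lower, against 20.7% of all genes in either direction. The change was below 0 for 10 of the 13, against 38.9% of all genes.

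Pfn1 and Kif5a, of the cytoskeleton and its transport, showed no detectable serum difference. Pfn1 ranged from 10.96 to 11.88 (median 11.48) with carrier serum and from 10.94 to 11.995 (median 11.57) with non-carrier serum, a change of -0.010 (SE 0.032, limma adjusted p = 0.872). Its differences within runs went from -0.15 in HB9MNs to 0.14 in run B. Kif5a ranged from 9.48 to 9.93 (median 9.81) with carrier serum and from 9.56 to 9.95 (median 9.79) with non-carrier serum, a change of -0.0066 (SE 0.014, adjusted p = 0.811). Kif5a had the smallest SD within run and serum of the 9 genes, 0.045, lower than in all but 0.382% of genes. Even so its carrier arrays lay below the others in the motorneuron run (-0.091) and above them in HB9MNs (0.044), and the difference between runs in the serum effect was not called (interaction p = 0.165, adjusted p = 0.747).

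Neither system had a call among its wider genes. Of 24 genes for profilins and actin assembly 0 passed, with 1 higher and 2 lower at an unadjusted p under 0.05, and Pfn2, the neuronal profilin, had -0.037 (adjusted p = 0.414). Of 20 kinesin and dynein transport genes 0 passed, with 2 lower at an unadjusted p under 0.05. Over all genes 20.7% met that unadjusted threshold in either direction. The kinesin-1 heavy chains related to Kif5a had 0.018 for Kif5b, the ubiquitous form, and -0.0018 for Kif5c, the other neuronal form (limma adjusted p = 0.694 and 0.957).

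Vapb, the membrane contact anchor, ranged from 8.91 to 9.74 (median 9.46) with carrier serum and from 9.34 to 9.91 (median 9.53) with non-carrier serum. It was lower in 8 of 9 runs, and in run F carrier arrays lay between 9.488 and 9.492 against 9.53 to 9.55. In run E the low array had 8.91, whereas the other carrier arrays had 9.44 and 9.51. The change was -0.056 (SE 0.025, 95% interval -0.11 to -0.0065, limma adjusted p = 0.192), and -0.038 without the low array of run E (adjusted p = 0.250). It passed with the 4 motor neuron genes as covariates (-0.062, adjusted p = 0.0357). Vapa, its paralog, had -0.038 (adjusted p = 0.391), and of 23 genes for VAP proteins and their contact-site partners 0 passed, with 1 higher and 5 lower at an unadjusted p under 0.05. Over all genes 20.7% met that unadjusted threshold in either direction.

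Other inherited ALS genes outside RNA binding and the stress genes next to Sqstm1 were set beside these results. Of 18 measured further ALS genes, Nefh, the heavy neurofilament chain, rose by 0.089 (SE 0.025, limma adjusted p = 0.0374), and Glt8d1, a Golgi glycosyltransferase, fell by 0.062 (SE 0.016, adjusted p = 0.0250). They passed in 12 and 13 of 25 alternatives. Of 10 NRF2 target genes, the group to which Sqstm1 belongs in other cells, 6 were below 0, with a median of -0.023. At an unadjusted p under 0.05 (limma), 3 were lower and 1 higher. Past the adjusted threshold, which 2.33% of all genes passed, 2 fell and none rose. These were Slc7a11, the cystine transporter (-0.46, adjusted p = 0.0202), and Hmox1, haem oxygenase (-0.22, adjusted p = 0.0365, or 0.0513 without the 2 arrays called by the Grubbs' test), which passed in 14 and 11 of 24 alternatives. Of 10 ATF4 and CHOP genes 9 fell, with a median of -0.27, among them Atf4 itself (-0.25, adjusted p = 0.00329), Trib3 (-0.28, adjusted p = 0.00570) and Chac1 (-0.43, adjusted p = 0.0169). Of 25 alternatives these 9 passed in 11, for Ddit4, to 20, for Atf4 and Trib3. Of these 10, 5 are in lists that the study chose on these arrays, so the direction of the list is not independent evidence. Sqstm1 and the other 8 genes are in none of the gene sets or the gene list on which the study built its classifiers.

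**Figure D3:**
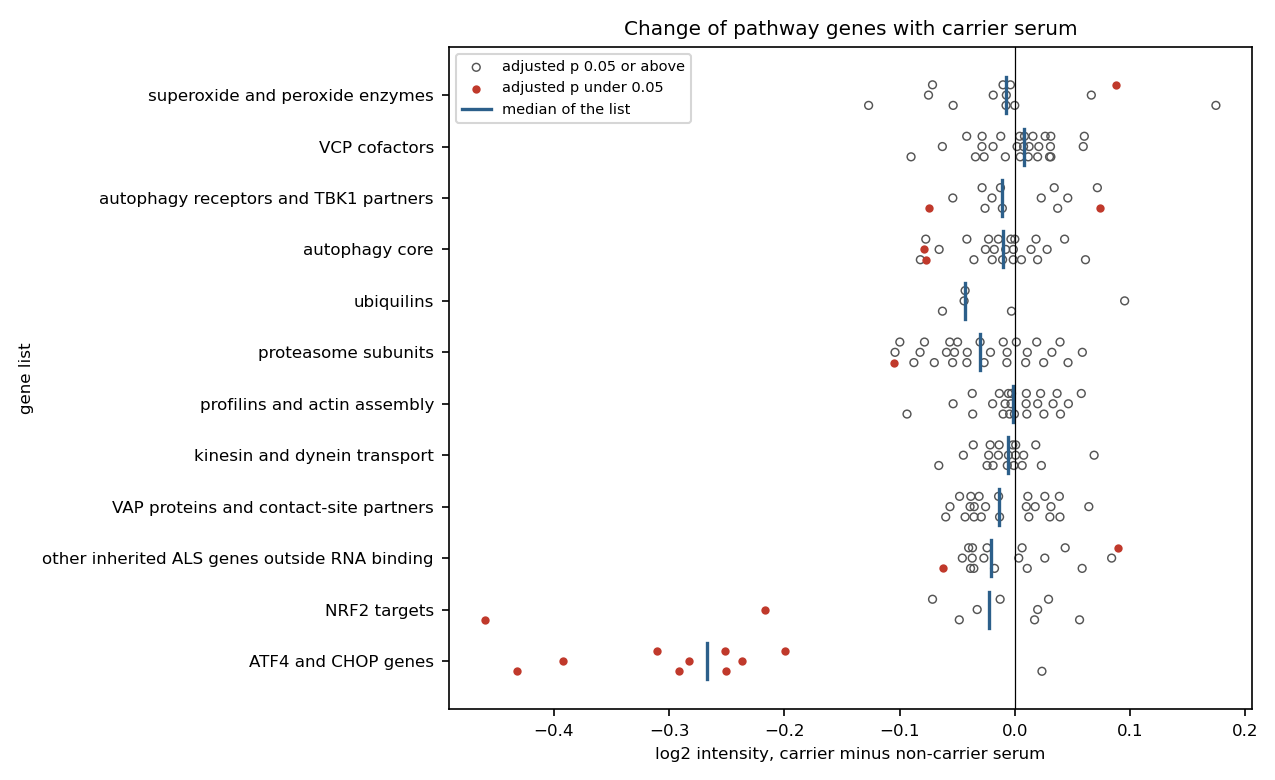
Carrier minus non-carrier difference in log2 intensity (horizontal axis) of every measured gene in 12 gene lists (vertical axis), 1 point a gene. Filled red points passed an adjusted p of 0.05 (limma), open points did not, and blue bars are list medians. The ATF4 and CHOP list stands lowest with a median of -0.27, while the medians of the other 11 lie between -0.043 and 0.0076.

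Some markers of the cells in the EBs were also called. Of 52 measured marker genes 4 were called and all 4 rose: Slc5a7, the choline transporter of motor neurons (0.15), Snap25 (0.074), Nefl (0.058) and Stmn2 (0.061). Of 25 alternatives they passed in 12, 16, 13 and 10. The summed intensity of 10 general neuron markers ran from 33757.5 to 40709 with carrier serum and from 31244 to 38840 with non-carrier serum, and that of 6 motor neuron markers from 3432 to 4797 and from 3390 to 4649. Of the motor neuron markers 1 of 6 was called and 3 of 6 were below 0, Mnx1 among them (-0.035). Of the general neuron markers 3 of 10 were below 0. At an unadjusted p under 0.05 (limma), 4 general neuron markers were higher and 1 lower, and 3 motor neuron markers were higher and 1 lower. The shares of all genes were 2.33% called, 20.7% at the unadjusted threshold in either direction, and 38.9% below 0. No marker of progenitors, pluripotent cells, glia, blood, endothelium, fibroblasts or endoderm was called. Their part in the changes of Sqstm1 and Ubqln2 was not tested beyond the covariate fits given above, in which Sqstm1 had -0.064 (adjusted p = 0.0170).

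Values also differed between runs. All 9 passed the test for differences between runs (limma F test), as did 94% of all genes, with adjusted p from 6.25e-15 for Sqstm1 to 0.0474 for Ubqln2. Ubqln2 lost this call when run HB9MNs, B, C, F or 10-week was left out. The run accounted for 24.5% of the variance of Ubqln2 and for 55.6% to 82.0% of that of the others, with a median of 72.5% for the 9 genes and 62.5% for all genes. Pfn1 had the widest spread, from 11.001 ± 0.039 (SD, n = 6) in run F to 11.77 ± 0.14 (SD, n = 7) in the motorneuron run, a ratio of 1.71. Optn followed with 7.11 ± 0.092 (SD, n = 6) in run B and 7.81 ± 0.075 (SD, n = 4) in HB9MNs, a ratio of 1.62. For Sqstm1 the run means went from 10.53 ± 0.079 (SD, n = 7) in the motorneuron run to 10.93 ± 0.043 (SD, n = 6) in run A, a ratio of 1.31. These ratios are between the extremes of the run means, whereas the -5.01% of Sqstm1 with carrier serum is an average over runs, an unlike measure.

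The genes did not follow the runs in 1 common order. The motorneuron run was lowest for Vcp, Tbk1, Sqstm1 and Kif5a and highest for Pfn1 and Vapb. Run F was highest for Sod1 (11.98), Vcp (10.61) and Kif5a (9.90) and lowest for Pfn1. Run B stood apart for Optn alone, where its arrays lay at 6.99 to 7.22 and those of the next run, F, at 7.34 to 7.40. Most neighbours in these orders could not be told apart: of 8 neighbouring pairs of runs, the arrays were apart in 2 for Optn and for Kif5a, in 1 for Pfn1 and for Vapb, and in 0 for the other 5 genes. The motorneuron arrays of Kif5a (9.48 to 9.63) lay below those of HB9MNs (9.64 to 9.69), and these below run E (9.70 to 9.80). The cell markers also differed between runs, and their part in these orders was not tested. The motorneuron run had the highest mean log2 intensity for markers of pluripotent cells (6.44, other runs 5.83 to 6.19), of astrocytes and oligodendrocytes (7.10, other runs 6.82 to 6.99) and of blood and microglia (6.07, other runs 5.47 to 5.66). For general neuron markers it had 11.69, within the 11.54 to 11.75 of the other runs. The pluripotency and blood lists were dim. With carrier serum their summed intensities were 223 to 423 over 4 pluripotency genes and 162 to 328 over 4 blood and microglia genes. Median intensities of single carrier arrays ran from 151 to 183. Whether array background differed between runs was not tested.

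**Figure D4:**
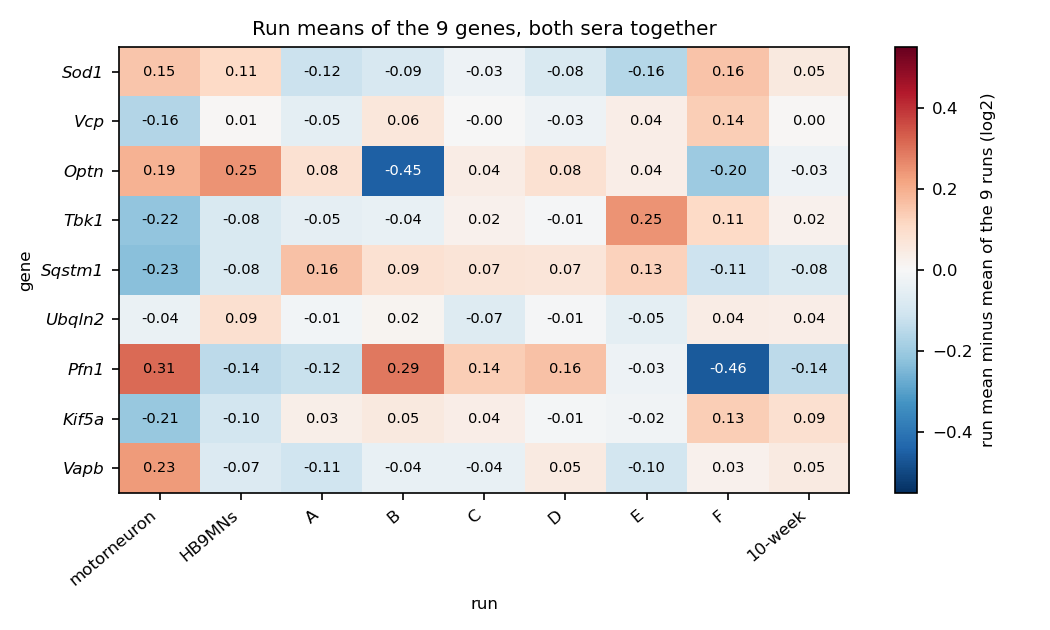
Mean log2 intensity of each gene (rows) in each run (columns), both sera together, minus the mean of its 9 run means; blue is lower and red higher. Optn is 0.45 below its mean in run B, Pfn1 is 0.46 below in run F and 0.31 above in the motorneuron run, and no value of Ubqln2 is beyond 0.089.

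Whether the serum difference itself varied between runs was tested as an interaction. None of the 9 genes was called, and none had an unadjusted p under 0.05, the p values lying between 0.165 for Kif5a and 0.831 for Tbk1. Over all genes 0.127% passed the adjusted threshold and 7.94% the unadjusted one. Each run held 2 to 6 arrays per serum, and a p that misses the threshold does not show that the serum effect was equal across runs.

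Genes most like each of the 9 were ranked by Pearson's r of the values left after run and serum had been fitted, over 59 arrays that share their normalization. Vapb had the closest, Nsg1 (r = 0.874) and Ap2s1 (0.854), both proteins of endosomes and coated vesicles. For Sod1 they were Mrpl21 (0.855), a mitochondrial ribosomal protein, and Hint1 (0.847). For Ubqln2 they were Git1 (0.836) and Ptprs (0.814), for Pfn1 Fam189b (0.83) and Celf3 (0.814), and for Tbk1 Golga1 (0.819) and Armc1 (0.803). Optn had Rbbp5 (0.776) and Scaf11 (0.770), Vcp had Hn1 (0.731) after a gene known by a clone name, and Kif5a had Timp3 (0.699) and Eif4g1 (0.698). For Sqstm1 the values were the lowest of the 9 genes, with Psmd2, a proteasome base subunit, at 0.606 and Capzb, which caps actin filaments, at 0.572. The 59 arrays include the low array of run E, which was extreme for Sod1, Ubqln2, Vapb and Tbk1. It may weigh on these values, and r without it was not computed. The values are descriptions and were not tested.

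**Figure D5:**
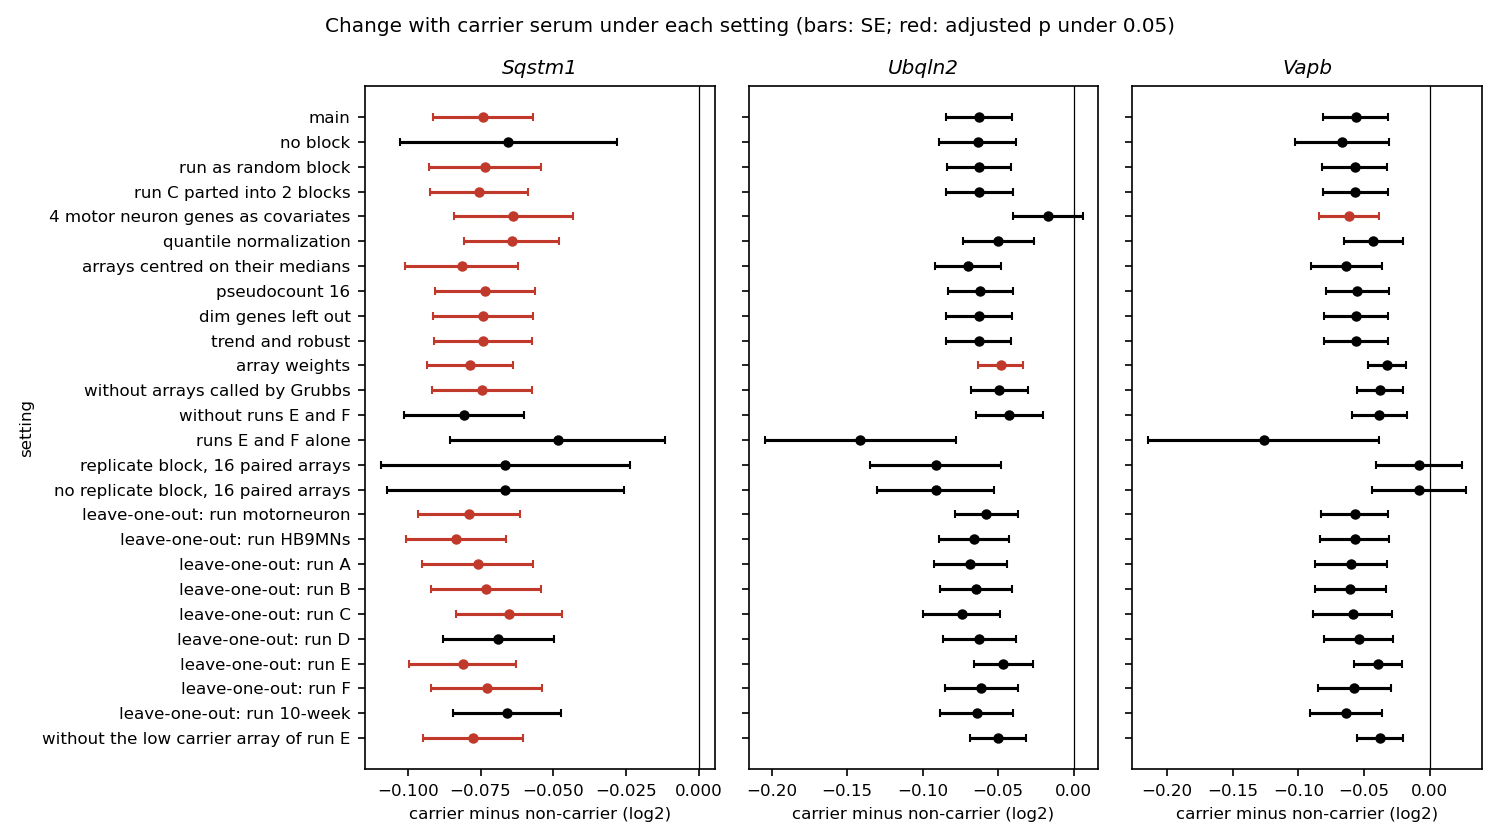
Carrier minus non-carrier difference in log2 intensity (horizontal axes) of Sqstm1, Ubqln2 and Vapb under the reported setting and 25 alternatives (vertical axis). Bars are standard errors and red marks an adjusted p under 0.05. All values lie below 0, Sqstm1 is red in the reported setting and 18 of the 25 alternatives, and Ubqln2 and Vapb are red in 1 each.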

How the data were processed

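Total RNA of 59 EB cultures was hybridized to Affymetrix mouse exon arrays. The authors computed the deposited linear intensities by RMA in aroma.affymetrix, averaging all exons of a gene (annotation release 33), after removing outlier arrays. The submitters' processing notes also name Affymetrix Expression Console. Intensities carry no read depth, and the number of arrays limits precision. The labels name a single mouse as the donor of a carrier serum, and per the study's methods a group of assays shared 1 batch of EBs, so p-values measure the spread between arrays within such runs.

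Log2 intensities (pseudocount 0, no filter) were fitted with limma 3.58.1 in R 4.3.3, with run as a fixed block, two-sided, and Benjamini-Hochberg adjustment over all genes at 0.05. Differences between runs and the serum by run interaction were F tests. The 9 genes and all lists were chosen with earlier results of these data known. Named genes were the 9, list genes that passed, close paralogs and the genes of highest residual correlation; Nbr1, Tax1bp1 and the marker genes Isl1, Mnx1, Chat and Pou5f1 were named after their values were seen. Alternatives covered block, covariates, normalization, pseudocount, filter, variance model, weights and arrays. Run C holds 11 arrays, more than the study's methods give for 1 batch of EBs, so it probably holds more than 1. With run C parted into 2 blocks Sqstm1 was again the gene of the 9 that passed (-0.075, limma adjusted p = 0.00754). On simulated data of this design limma recovered 52 of 100 genes shifted by 1 SD and 100 of 100 shifted by 2 SD, with 17 false calls. Motifs were searched with Python 3.11.15 in RefSeq promoter windows. Columns of unmapped samples numbered 0.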

Additional observations from a re-analysis of the deposited data

Results flagged for a closer look

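For each of the 9 genes, the 4 groups of 1 run and serum with 4 or more arrays were examined, 36 gene and group combinations in all. In these, 2 values stood apart from the rest of their group by Dixon's criterion at 95%, where chance flags about 1 in 20. Sod1 on 1 non-carrier array of run D had a log2 intensity of 11.58 against 11.74 to 11.77 on the other 3 (gap over range 0.870). Vcp on 1 non-carrier array of run C had 10.61 against 10.51 to 10.53 on the other 4 (gap over range 0.777).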

How the results depend on the processing

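The count of called genes among the 9 was 1 in the reported fit, in which 457 of all genes were called. It was 0 with no block (0 of all genes), 0 without runs E and F (59) and 0 with runs E and F alone (17). It was 3 with the 4 motor neuron genes as covariates, Optn, Sqstm1 and Vapb (6126 of all genes, 3952 of them higher), and 2 with array weights, Sqstm1 and Ubqln2 (2803). With each run left out in turn it lay between 0 and 1, and it was 0 without the 10-week run (113 of all genes) and 0 without run D (fewer still). The count over all genes also moved by over 1.5 times without run A (230), B (168), C (1601), E (270) or F (163) and without the 2 arrays called by the Grubbs' test (716). Apart from the 2 fits on 16 arrays given below, the other alternatives for this count gave 1, among them the omission of the low carrier array of run E, chosen after the data were seen.

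Signs turned for genes with changes near 0. Sod1 had 0.0162 with the 4 genes, 0.0014 with quantile normalization, 0.0063 without the arrays of the Grubbs' test, 0.0043 without runs E and F and 0.0021 without the low array, and -0.020 to 0.0058 with runs left out in turn. Optn had 0.025 in runs E and F alone. Tbk1 had -0.046 with the 4 genes and -0.035 in runs E and F alone. Pfn1 had 0.029 with the 4 genes, 0.021 with array weights, 0.0031 without runs E and F and 0.0039 without the low array, and -0.028 to 0.016 with runs left out. Kif5a had 0.0022 with no block, 0.0088 with quantile normalization, 0.0038 with array weights and 4.3e-04 in runs E and F alone, and -0.014 to 0.0068 with runs left out. The cause of these turns was not tested. Vcp, Sqstm1, Ubqln2 and Vapb kept their sign in 25 of 25. All 9 genes passed the test between runs, or 8 where Ubqln2 lost its call, and 0 passed the interaction in each alternative run.

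Titles share a number or letter between sera for 8 pairs (16 arrays), whose deviations correlated between -0.13 and 0.33, with 1 pair above 0.1, so the numbers were not taken to pair samples. With the pair as a replicate block 0 of the 9 genes were called, as with the run as block on the same 16 arrays (0). In this pairing Sqstm1 had -0.066 and Sod1 0.060, the latter 0.060 also without the replicate block.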
